A study of Rattus norvegicus with 4 samples.

Results

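The genes described here handle platinum drugs in cells: copper transporters and chaperones, organic cation carriers, ABC export pumps and a glutathione transferase. The set was fixed as 10 gene names (Slc31a1, Slc31a2, Atp7a, Atp7b, Atox1, Slc22a2, Slc47a1, Abcc1, Abcc4 and Gstp1), each taken as the row of that name with a protein-coding biotype. Of 33506 genes in the deposited table, 22293 were protein-coding, and 9 of the 10 names had a row. No row was named Abcc1. All 9 genes with a row passed the filter on low counts and were among the 14719 genes tested.

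RNA sequencing was carried out on lumbar dorsal root ganglia (DRGs), where somata of sensory neurons lie among satellite glia, Schwann cells and other cell types. The rats were wild-type neonatal Wistar rats given PBS vehicle (2 libraries) or cisplatin at 0.3 mg/kg (2 libraries), and several lumbar ganglia were pooled for each library. Injections were made at P14 and P16 (postnatal days) and ganglia taken at P23 by the methods, whereas the labels place tissue collection 16 days after treatment. The labels number the libraries of each group as separate rats, and the sex behind each library was not stated. The study addressed the sensory effects of cisplatin given in early life, and the comparison below asks how transcripts for platinum uptake, routing, export and conjugation differed between treated and control ganglia.

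Cisplatin is small and polar, and it crosses membranes in part through proteins that serve other substrates. The copper importer CTR1 and organic cation carriers can admit it, the chaperone ATOX1 passes copper to the export ATPases ATP7A and ATP7B, and these can bind platinum as well. Inside the cell platinum reacts with thiols, so glutathione, the transferases that use it and metallothioneins bind part of it, and ABC pumps move conjugates out. DRGs lack the tight barrier that shields the brain, and platinum is known to accumulate in them.

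Total counts ranged from 21384801 to 25618417 per library. Mitochondrially encoded genes took 1.46% and 2.52% of counts in the controls, against 5.38% and 4.68% after cisplatin. The neuronal markers (Rbfox3, Snap25, Nefh, Prph and Tubb3) were all present and summed to 9959.7 to 13076 CPM (counts scaled to a common library size) in vehicle-treated and 11365 to 15957 CPM in cisplatin-treated ganglia, so the sums of the groups overlapped, as they did for the satellite glia, macrophage, fibroblast, endothelial and blood markers. All 5 neuronal markers had a log2 fold change above 0 (median 0.31), and none of them passed in edgeR. Sums can hide single markers, whose log2 fold changes ran from -1.11 to 0.55 for satellite glia. For macrophages they ran from -0.32 to 0.86, and for fibroblasts from -0.74 to 0.64. Of the 3 endothelial markers 2 had a row, and Cldn5 was listed at 0 in each library, so that sum came from 1 gene. Skeletal muscle markers (Acta1, Ckm and Myh1) summed to 442 CPM in vehicle library 1 and to between 13.0 and 47.4 CPM in the other 3 libraries. The part of cell make-up and of the mitochondrial share in the values below was not tested, and in whole ganglia fewer cells of a type and less RNA per cell cannot be told apart.

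Promoter sequence was examined for letters that metals and oxidants are known to act through. Metal response elements (searched as TGCACNC or TGCGCNC, where N is any base) bind the zinc-sensing factor MTF-1, and antioxidant response elements (TGACNNNGC) bind NRF2. Both strands were searched in RefSeq windows of assembly GRCr8 that run from 250 bases before to 50 bases after the start of each gene. The metal element was found in 24.2% of 33469 such windows and the antioxidant element in 12.1%. Of the 10 genes, 9 had a window, and 4 of these held the metal element, namely Slc31a2, Atp7b, Abcc4 and Gstp1. The antioxidant element was found in 2, Slc31a2 and Gstp1. Atox1, Atp7a, Slc31a1, Slc22a2 and Abcc1 held neither, and Slc47a1 had no entry. Beside them, the Mt1 window held 6 metal elements, Mt2A 4 and Mt3 3. A match describes letters only, and the absence of a match says nothing of whether a factor acts on the gene.

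Printed here are 3 windows, each 5′ to 3′ on the strand of its gene, with the matched elements in capitals. Atox1 (chr10:40080512-40080811, minus strand, 63.3% GC) is shown because it had the smallest p of the set, Slc31a2 (chr5:80753368-80753667, plus strand, 63.0% GC) because it carried both elements, and the metallothionein gene Mt1 (chr19:10832926-10833225, minus strand, 65.0% GC) as a promoter dense in metal elements.
Atox1: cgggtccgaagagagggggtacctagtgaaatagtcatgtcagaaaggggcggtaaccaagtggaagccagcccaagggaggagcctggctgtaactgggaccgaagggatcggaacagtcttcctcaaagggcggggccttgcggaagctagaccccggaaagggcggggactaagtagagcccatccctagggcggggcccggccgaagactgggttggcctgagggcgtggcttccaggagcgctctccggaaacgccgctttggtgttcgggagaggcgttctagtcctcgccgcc
Slc31a2: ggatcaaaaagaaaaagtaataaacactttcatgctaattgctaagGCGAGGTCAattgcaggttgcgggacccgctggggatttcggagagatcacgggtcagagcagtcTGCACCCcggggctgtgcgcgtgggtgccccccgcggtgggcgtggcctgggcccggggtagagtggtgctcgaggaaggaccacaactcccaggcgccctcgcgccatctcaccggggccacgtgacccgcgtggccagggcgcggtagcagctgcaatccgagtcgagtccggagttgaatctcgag
Mt1: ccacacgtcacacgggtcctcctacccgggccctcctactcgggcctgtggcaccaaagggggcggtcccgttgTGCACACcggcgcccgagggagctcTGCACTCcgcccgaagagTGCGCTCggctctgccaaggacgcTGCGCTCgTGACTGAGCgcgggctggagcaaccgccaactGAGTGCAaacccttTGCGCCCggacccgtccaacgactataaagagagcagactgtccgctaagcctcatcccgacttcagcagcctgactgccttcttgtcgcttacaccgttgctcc
The Slc31a2 window had its metal element at position -139 from the start site and its antioxidant element, on the opposite strand, at -204. The capitals in Mt1 include 1 metal element read on the opposite strand and 1 antioxidant element, whereas Atox1 stayed in lower case throughout.

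Across the 9 genes, the 2 that differed most between cisplatin-treated and vehicle-treated DRGs stand next to each other on the copper route. Atox1, which carries copper to the export ATPases, was 2.13-fold higher with cisplatin (95% interval 1.44 to 3.15), and Atp7a, an export ATPase that receives it, was 2.32-fold lower. Atox1 is also among the shortest genes tested and Atp7a among the longest, and fold change followed gene length, as described below. The other 7 ranged from 1.44-fold lower (Abcc4) to 1.68-fold higher (Slc22a2, at a few counts per library). None of the 9 was called by edgeR's quasi-likelihood test at a Benjamini-Hochberg adjusted p under 0.05 with a fold change of at least 1.5, a rule that called 1 of all 14719 genes (0.00679%). At an unadjusted p under 0.05 with the same fold, edgeR picked out 2 of the 9 against 8.12% of all genes, with 1 higher (Atox1, against 2.8%) and 1 lower (Atp7a, against 5.32%). DESeq2 called 1 of the 9, Atox1, against 0.951% of all genes, made up of 0.34% higher and 0.611% lower. It gave no adjusted p for Slc22a2 and Slc47a1, so these could not be called.

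In 5 of the 9 genes the CPM values of the groups did not overlap, with both cisplatin-treated libraries above both vehicle-treated libraries for Slc31a2, Atox1 and Gstp1 and below them for Atp7a and Abcc4. The background was 20.6% of all genes for the first pattern and 21.2% for the second, 41.8% in all. The median log2 fold change was 0.20 over the 9 genes and -0.0088 over all genes tested.

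**Figure D1:**
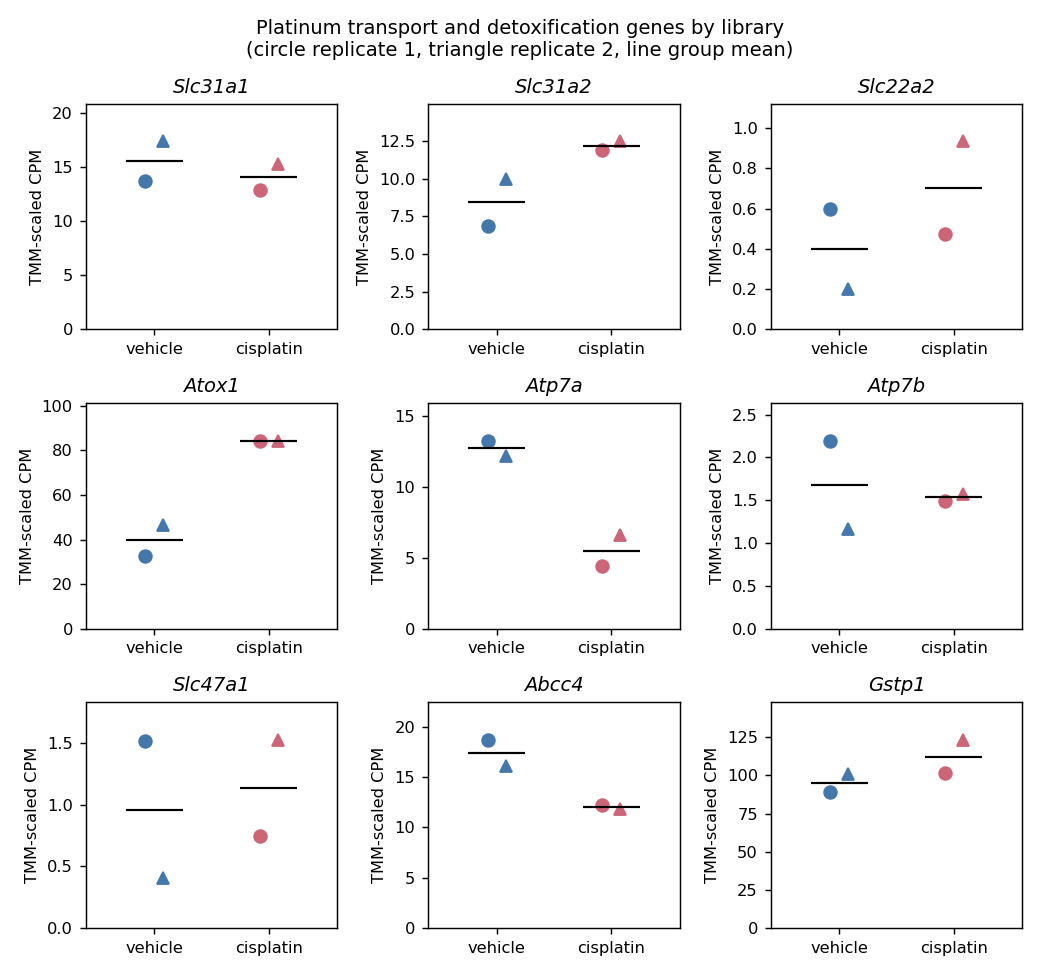
TMM-scaled CPM of each of the 9 genes on linear axes from 0, with 1 point per library, group means as lines and vehicle and cisplatin side by side. Atox1 sat at 32.8 and 46.4 CPM with vehicle and 84.1 and 84.5 CPM with cisplatin, and Atp7a at 13.3 and 12.2 against 4.41 and 6.59 CPM.

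Slc31a1 encodes CTR1, the high-affinity copper importer and a route by which cisplatin can enter cells (chromosome 5, 78222504 to 78249358, plus strand, Rnor_6.0 as in all positions from the deposited table). It had 343 and 342 counts with vehicle and 327 and 360 counts with cisplatin, or 13.7 and 17.4 against 12.9 and 15.3 CPM. Neither group stood apart. A log2 fold change of -0.14 ± 0.24 (SE, n = 2 per group) came with an adjusted p of 0.866 in edgeR, and the 95% interval allowed anything from 0.597-fold to 1.38-fold of the vehicle level. A change of the uptake transporter within those bounds was not detectable with these libraries.

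Slc31a2 encodes CTR2, a relative of CTR1 found mainly on internal membranes that influences how much copper and platinum cells retain. The gene lies on the same chromosome 5 stretch, at 78120607 to 78131114 on the plus strand. It was counted 172 and 197 times with vehicle and 302 and 294 times with cisplatin, which gave 6.87 and 10.01 against 11.9 and 12.5 CPM. Both cisplatin-treated values lay above both vehicle-treated values, with vehicle library 2 the nearer to them. On the log2 scale cisplatin was 0.53 ± 0.28 (SE) above vehicle, which did not pass in edgeR (adjusted p = 0.564).

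Slc22a2 encodes the organic cation transporter OCT2, best known from the kidney tubule, where it takes up cisplatin (chromosome 1, 48317995 to 48360261, minus strand). Only 15 and 4 counts were found with vehicle and 12 and 22 with cisplatin, at most 0.935 CPM. The values overlapped. Its log2 fold change of 0.75 came with an SE of 0.73 and an adjusted p of 0.742 in edgeR. The interval ran from -1.07 to 2.56, so its direction was not resolved. Without cisplatin library 2 the log2 fold change was 0.18, and without vehicle library 1 it was 1.77.

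Atox1 encodes the small cytosolic protein that collects copper from the import side and hands it to ATP7A and ATP7B (chromosome 10, 40790845 to 40805941, minus strand). Libraries from controls held 822 and 914 counts, those from treated rats 2137 and 1987. This gave 39.6 ± 9.61 CPM (SD, n = 2) with vehicle and 84.3 ± 0.239 CPM with cisplatin, and the highest vehicle-treated library stood at 46.4 CPM, well short of the lowest cisplatin-treated one at 84.1 CPM. In edgeR the log2 fold change was 1.09 ± 0.23 (SE), the 202nd highest among 14719 genes, with an unadjusted p of 0.00367 and an adjusted p of 0.509. DESeq2 gave a log2 fold change of 1.10 and an adjusted p of 0.032, which passed. Vehicle library 1 had the lower Atox1 value of the controls and also the most muscle transcripts. Without that library the edgeR estimate was 0.87, and what muscle contributed was not tested. The estimate stayed between 0.87 and 1.36 whichever library was removed.

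Atp7a encodes the copper-exporting ATPase that loads copper enzymes in the Golgi and moves to the plasma membrane when copper is high. The gene lies on chromosome X, 77076106 to 77193644, on the plus strand. It was covered by 332 and 240 counts with vehicle and by 112 and 155 counts with cisplatin. In CPM this was 12.7 ± 0.757 (SD, n = 2) with vehicle against 5.50 ± 1.54 with cisplatin, and both treated libraries lay below both controls. The log2 fold change was -1.21 ± 0.29 (SE), the 450th lowest of the genes tested, with an unadjusted p of 0.00742 and an adjusted p of 0.509 in edgeR. DESeq2 gave the same fold and an adjusted p of 0.0887, short of the threshold. Removing single libraries moved the estimate between -1.53 and -0.94. An antisense row overlapping the gene held at most 2 counts in any library.

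Atp7b, the related ATPase that in liver sends copper into bile, was present at a low level (chromosome 16, 74865516 to 74945286, plus strand). It had 55 and 23 counts in controls and 38 and 37 after cisplatin, so the treated values lay inside the range of the controls. Its log2 fold change was -0.15 ± 0.45 (SE), with an adjusted p of 0.925 in edgeR. The interval ran from -1.27 to 0.98, which includes the estimate for its relative Atp7a.

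The unequal values of the copper genes can be read within each library, where scaling between libraries plays no part. Atox1 had 2.48 and 3.81 counts per Atp7a count in vehicle-treated libraries and 19.1 and 12.8 in cisplatin-treated libraries. Per unit length (FPKM, counts scaled to gene length and library size) the same ratio was 37.7 and 58.0 with vehicle against 291 and 195 with cisplatin. Set against the importer Slc31a1 instead, Atox1 gave ratios of 2.40 and 2.67 against 6.54 and 5.52 counts, and the number of Slc31a1 counts per Atp7a count was 1.03 and 1.43 against 2.92 and 2.32. Slc31a2 stood at 0.501 and 0.576 counts per Slc31a1 count with vehicle and at 0.923 and 0.817 with cisplatin. Gene length bears on all of these ratios. With the length offset described below, the log2 fold change was 0.80 for Atox1 and -0.86 for Atp7a, in place of 1.09 and -1.21. For Slc31a1 it was -0.27 in place of -0.14, and for Slc31a2 0.46 in place of 0.53. All 4 ratios were chosen after the values had been seen and are given without a test. An exact permutation test of 2 against 2 libraries cannot go below a two-sided p of 0.333.

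**Figure D2:**
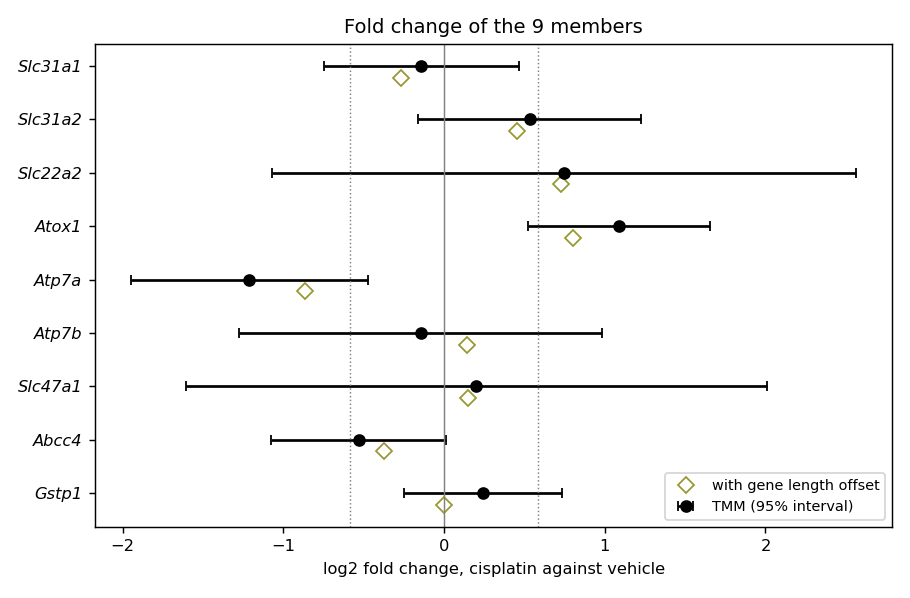
Log2 fold change, cisplatin against vehicle, for each of the 9 genes in the edgeR fit (filled points, 95% intervals as bars) and with the gene length offset (open diamonds), with dotted lines at a fold change of 1.5. The intervals of Atox1 (0.52 to 1.65) and Atp7a (-1.95 to -0.48) lie on opposite sides of 0, and the other 7 include it.

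Among the export proteins, Slc47a1 encodes MATE1, a proton-coupled exporter of organic cations known from kidney and liver (chromosome 10, 47632192 to 47666921, minus strand). It had 38 and 8 counts with vehicle and 19 and 36 with cisplatin. The groups overlapped and the estimate was imprecise, with a log2 fold change of 0.20 ± 0.72 (SE) and an adjusted p of 0.936 in edgeR. Leaving out single libraries moved it from -0.42 to 1.48.

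Abcc4 encodes MRP4, an ABC pump for organic anions and cyclic nucleotides (chromosome 15, 103696557 to 103927592, minus strand). With vehicle it had 468 and 316 counts, and with cisplatin 311 and 278. After scaling, the values were 18.7 and 16.1 CPM against 12.2 and 11.8 CPM, and the groups did not overlap. This was a log2 fold change of -0.53 ± 0.22 (SE), with an unadjusted p of 0.0542 and an adjusted p of 0.519 in edgeR.

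Abcc1, the gene of the glutathione-conjugate pump MRP1, had no row of its own name. The table held 6 rows whose description gave that protein name, 2 of them protein-coding, and none was counted as Abcc1. The main one, LOC688708 (chromosome 10, 549883 to 672196, minus strand), had 404 and 274 counts in controls and 177 and 202 after cisplatin, with a log2 fold change of -0.95 ± 0.25 (SE) and an adjusted p of 0.509 in edgeR. The 6 rows together summed to 522 and 328 counts against 221 and 252. How the counting divided reads among them is not known.

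Gstp1 encodes the pi-class glutathione transferase, an abundant cytosolic enzyme that joins glutathione to electrophiles (chromosome 1, 219291679 to 219294147, minus strand). Per unit length it had the highest mean of the set over the 4 libraries, although Atox1 stood above it in cisplatin library 1. The counts were 2231 and 1984 with vehicle and 2575 and 2902 with cisplatin. In CPM it measured 94.96 ± 8.25 (SD, n = 2) with vehicle and 112 ± 15.5 with cisplatin, and the nearest libraries of the groups both stood at 101 CPM. With an adjusted p of 0.692 in edgeR, the log2 fold change was 0.24 ± 0.20 (SE), and with a gene length offset it was -0.0024. A second row described as a pi-class transferase (RGD1307603) held at most 4 counts in a library.

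Levels per unit length spanned the set from abundant cytosolic proteins to barely detected carriers. Mean FPKM over the 4 libraries was 131.7 for Gstp1, 109.5 for Atox1, 10.2 for Slc31a1, 5.71 for Slc31a2, 3.20 for Abcc4, 1.06 for Atp7a, 0.526 for Slc47a1, 0.243 for Slc22a2 and 0.229 for Atp7b. In this order Gstp1 and Atox1 overlapped across libraries, as did Slc31a2 and Abcc4, and each neighbouring pair from Atp7a to Atp7b. The steps from Atox1 to Slc31a1, from Slc31a1 to Slc31a2 and from Abcc4 to Atp7a did not overlap. Gstp1 ranged from 114 to 157 FPKM, while Atox1 ran from 58.2 and 81.4 FPKM with vehicle to 149 and 150 FPKM with cisplatin, so the overlap of the pair came from the cisplatin-treated libraries.

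**Figure D3:**
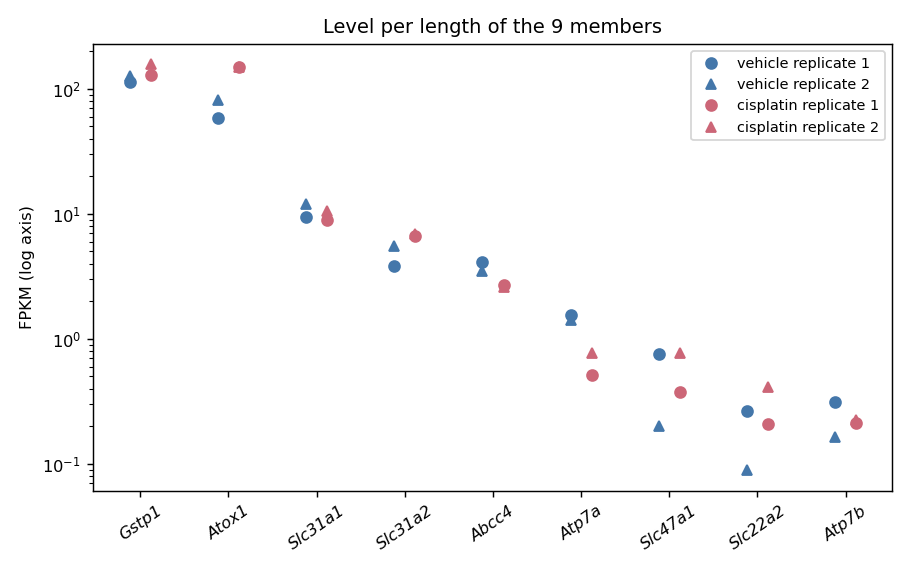
FPKM per library for the 9 genes on a log axis, ordered by mean level, with 1 point per library coloured by treatment. Gstp1 and Atox1 sit above 50 FPKM, Slc31a1 near 10 FPKM, and Slc47a1, Slc22a2 and Atp7b below 1 FPKM.

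Gene length moved with the fold change across the whole transcriptome, and the copper genes Atox1, Atp7a and Atp7b lie at the ends of the length scale. Slc31a1 (1416 bases) and Slc31a2 (1765 bases) lie between them. The Spearman correlation between gene length and log2 fold change was -0.357 over 14719 genes, which are not independent replicates. The shortest 10% of genes (105 to 969 bases) had a median log2 fold change of 0.29 and contains Atox1 (553 bases) and Gstp1 (769 bases). The longest 10% (5195 to 28192 bases) had a median of -0.30 and contains Atp7a (8422 bases) and Atp7b (6860 bases). When a length trend was fitted to each library and entered as an offset, the correlation was -0.0196. The log2 fold change was then 0.80 for Atox1 and -0.86 for Atp7a, each with an adjusted p of 0.694 in edgeR. Under the same offset Atp7b went from -0.15 to 0.14 and Gstp1 from 0.24 to -0.0024. What made fold change follow length was not tested.

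**Figure D4:**
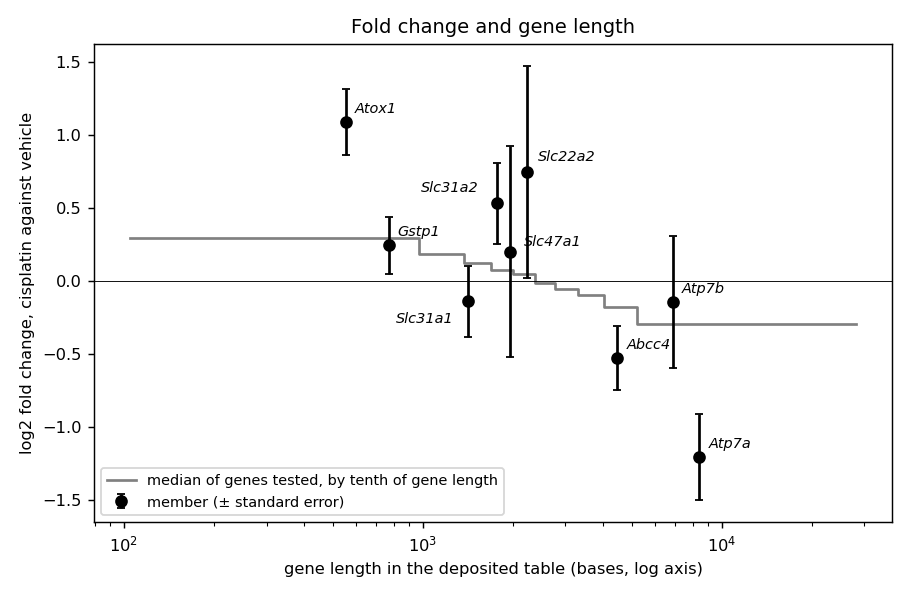
Log2 fold change of the 9 genes with standard errors, against gene length on a log axis, with the median of all genes in each of 10 length bins as a stepped line. Atox1 lies above the 0.29 median of the shortest bin, Gstp1 close to it, and Atp7a below the -0.30 median of the longest bin.

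The rest of the pathway was followed through lists of other copper proteins, metallothioneins, SLC carriers with LRRC8 channels, ABC pumps, glutathione transferases and enzymes of glutathione synthesis. Together these had 85 rows, of which 73 were tested. No gene was called by edgeR, and 5 had an unadjusted p under 0.05 with a fold of at least 1.5 (8.12% of all genes did), while DESeq2 called 1 (0.951% of all genes). The log2 fold change was above 0 in 40 of 73 (54.8%), against 49.1% of all genes, and the median was 0.036.

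Of 18 other copper proteins tested, 9 had a log2 fold change above 0 and 9 below, with a median of 0.077. Xiap, a ubiquitin ligase that also binds copper, had 322 and 235 counts with vehicle and 119 and 177 with cisplatin, a log2 fold change of -1.02 ± 0.31 (SE, adjusted p = 0.509 in edgeR). Sod1, the copper-zinc superoxide dismutase, had 4540 and 3442 against 6917 and 5951 counts, a log2 fold change of 0.56 ± 0.19 with the same adjusted p. Commd1, which helps the copper ATPases traffic, gave 0.40 ± 0.17 (adjusted p = 0.519 in edgeR). In this list both cisplatin-treated libraries lay above both controls for 8 genes and below them for 3, against 20.6% and 21.2% of all genes.

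Metallothioneins, cysteine-rich proteins that bind zinc, copper and platinum, overlapped between groups in all 4 rows tested. Mt3, the form typical of nervous tissue, had 9084 and 8546 counts with vehicle and 7786 and 10901 with cisplatin, a log2 fold change of -0.050 ± 0.28. One of 2 rows named Mt1 had 275 and 479 against 325 and 614 counts (0.14 ± 0.49), and the other had 46 and 63 against 50 and 102 (0.33 ± 0.52). Mt2A had 76 and 96 against 93 and 150 counts and a log2 fold change of 0.35 ± 0.42. None of these genes passed in edgeR or DESeq2.

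Among 13 tested SLC carriers and LRRC8 channel subunits, 7 had a log2 fold change above 0, with a median of 0.034. Lrrc8b, a subunit of volume-regulated anion channels, had 815 and 606 counts with vehicle and 398 and 391 with cisplatin. Its log2 fold change was -0.97 ± 0.19 (SE), with an adjusted p of 0.509 in edgeR and 0.0497 in DESeq2. DESeq2 gave the same fold of -0.97 but no call when all protein-coding genes with any count entered the fit, an alternative chosen after seeing the data, with an adjusted p of 0.0569.

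All 8 other ABC export pumps tested had log2 fold changes below 0, with a median of -0.21, and in 4 of them both cisplatin-treated libraries lay below both controls, a pattern seen in 21.2% of all genes. Abcb1a, which encodes P-glycoprotein, had 530 and 649 against 409 and 505 counts and a log2 fold change of -0.53 ± 0.30 (adjusted p = 0.586 in edgeR). Abcc3 gave -0.48 ± 0.28 and Abcc6 -0.46 ± 0.28, with adjusted p of 0.595 and 0.615 in edgeR. With the length offset 5 of the 8 pumps were below 0 and 3 above, and their median was -0.025.

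The other glutathione transferases had log2 fold changes above 0 in 15 of 19 genes tested, with a median of 0.45, and in 11 of them both cisplatin-treated libraries lay above both controls, against 20.6% of all genes. Gstm1, a mu-class enzyme, had 971 and 968 counts with vehicle and 2227 and 1606 with cisplatin, a log2 fold change of 0.83 ± 0.23. Mgst3, a membrane-bound relative, had 2239 and 1286 against 3918 and 2958 counts and 0.85 ± 0.24. Gstm7 gave 0.59 ± 0.19, and all 3 had an adjusted p of 0.509 in edgeR. With the length offset 14 of 19 were above 0 and the median was 0.24. Transferases of 1 class are close in sequence, and reads may have been split between them.

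For synthesis and turnover of glutathione, 6 of 11 tested genes had log2 fold changes above 0, with a median of 0.036. Chac1 and Chac2, which break glutathione down, gave 0.59 ± 0.32 and 0.44 ± 0.23 (adjusted p = 0.577 and 0.568 in edgeR). Slc7a11, the cystine importer that feeds synthesis, had 147 and 94 counts with vehicle and 37 and 123 with cisplatin. Its treated libraries stood on both sides of the controls, and the log2 fold change was -0.68 ± 0.60 (adjusted p = 0.716 in edgeR). It was -1.87 without cisplatin library 2 and -0.019 without cisplatin library 1.

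**Figure D5:**
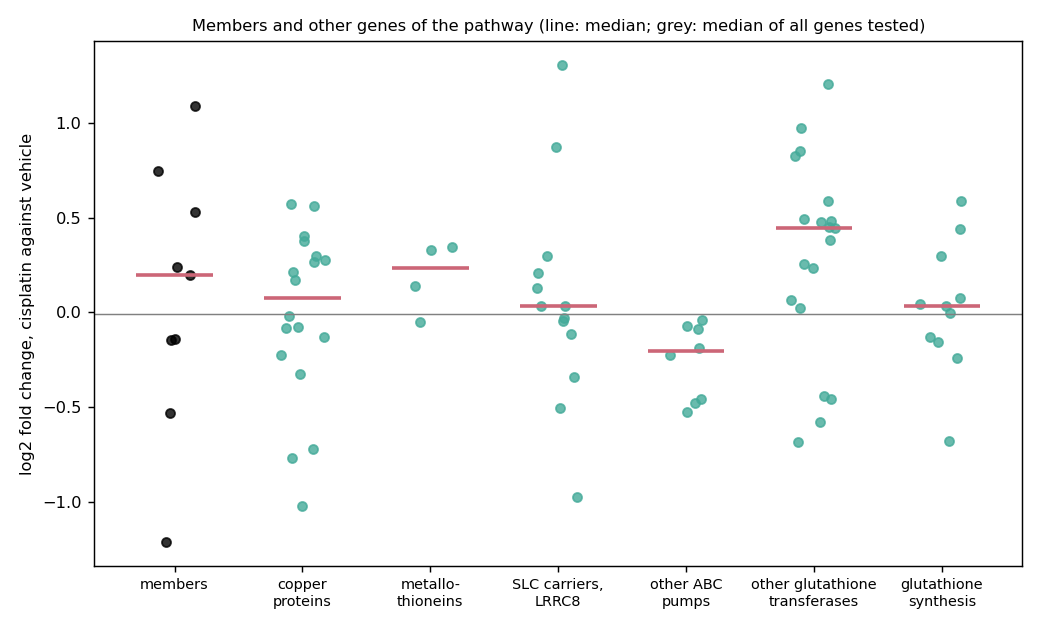
Log2 fold change of every tested gene of the set and of the 6 lists, with the median of each as a red bar and the median of all genes as a grey line. The ABC pumps all lie below 0 (median -0.21, with 3 above 0 under the length offset), the other glutathione transferases mostly above it (median 0.45), and the remaining lists are spread around it.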

How the data were processed

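The authors deposited raw counts per gene and FPKM values for each library. They removed adaptors, aligned reads with HISAT2 2.0.5 (Ensembl Rnor_6.0) and used StringTie 1.3.3b for transcript assembly. For differential expression the authors used DESeq2 1.20.0 on raw counts with a 1.5-fold threshold. The submitters' processing notes also list featureCounts 1.5.0-p3. Libraries were made from poly-A RNA, and whether counting used strand was not stated, so overlapping genes and close copies are uncertain.

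Samples were grouped by treatment from the labels. Counts of protein-coding genes kept by filterByExpr were scaled by TMM and tested by the quasi-likelihood method of edgeR 4.0.16 in R 4.3.3, with Benjamini-Hochberg adjustment over 14719 genes. A call needed an adjusted p under 0.05 together with a 1.5-fold difference, and standard errors came from the F statistic. CPM values used TMM library sizes and FPKM the deposited columns. A floor of 3 counts equals 0.118 to 0.152 CPM per library, for counting error only.

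Alternatives were DESeq2 1.42.0, limma 3.58.1 on log2(FPKM + 1) and log2(FPKM + 0.1), a scale that understates changes of low genes, other scaling and filters, a lowess of log counts on gene length (span 0.3) and leaving out libraries. The edgeR and DESeq2 steps were also run on simulated data. These varied less between replicates than the real libraries in the fit without a block, so that run does not show how the tests perform here. One list of cell type markers is not reported here. The genes, lists and tests were chosen with earlier results of these data known. All 10 genes were named. Of each list the text gives genes called by edgeR or DESeq2, otherwise the 3 smallest p-values, and for copper proteins and metallothioneins the most abundant gene. Replicates are separate rats by their labels, and with 2 per group the p-values rest on the spread between few animals.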

Additional observations from a re-analysis of the deposited data

How the results depend on the processing

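With 2 libraries per group, counts of called genes moved with the setting more than fold changes did. Against 0 higher and 1 lower gene in edgeR, the calls were 1 and 1 without a filter, 1 and 1 when all 4 libraries needed 10 counts, 50 and 90 in DESeq2, 412 and 783 at an unadjusted p, 2 and 2 for log2(FPKM + 1), and 1 and 1 for log2(FPKM + 0.1). DESeq2 on all protein-coding genes with any count, chosen after seeing the data, called 46 and 78. Leaving out each library gave 0 to 4 higher and 0 to 4 lower genes. Rats with the same number in the labels are different animals, and the column headers number the cisplatin-treated rats otherwise. Across genes, the difference of replicate 2 minus replicate 1 correlated between the groups (r = 0.444). The sign of r depends on which libraries are matched, and what the number stands for was not tested. As an alternative, the number was entered as a replicate block. This lowered the common dispersion (the spread between replicates in the fit) from 0.0711 to 0.0209, and the p-values under the block rest on that matching. The block called 529 higher and 1136 lower genes, 1665 of the 14719 tested. Of the 9 genes of the set it called 2 in edgeR, Atox1 at 1.11 (adjusted p = 0.000797) and Atp7a at -1.23 (adjusted p = 0.00559). With the block and the length offset the calls were 233 and 687, again with 2 of the set. Of the set DESeq2 called 1 under both filters and the unadjusted rule 2. Of the 73 other pathway genes tested, DESeq2 called 1, the unadjusted rule 5 and block plus offset 3. The block called 5 of these 73, against 1665 of all 14719 genes. They were Loxl2 (named after its values were seen), Xiap, Lrrc8b, Mgst3 and Gstm1. Their adjusted p was 0.0362, 0.0119, 0.00222, 0.000945 and 0.00587 in edgeR. LOC688708 also passed under the block (adjusted p = 0.00974 in edgeR). The median log2 fold change of the set, 0.20, was 0.087 with library size alone, -0.14 when all libraries needed 10 counts (which dropped Slc22a2 and Slc47a1), 0.099 for log2(FPKM + 1), 0.14 with the length offset, 0.12 with offset and block, and -0.18 to 0.39 when single libraries were left out. Signs turned with the length offset for Atp7b (0.14, with the block 0.16), Gstp1 (-0.0024, with the block -0.0061) and one Mt1 row (-0.17, with the block -0.16), and with offset and block for the other Mt1 row (-0.016) and Abcb1a (0.0039). They also turned when single libraries were left out, over which the values ran from -0.29 to 0.043 for Slc31a1, -0.51 to 0.40 for Atp7b, -0.42 to 1.48 for Slc47a1, -0.46 to 0.83 and -0.35 to 0.80 for the Mt1 rows, -0.11 to 0.73 for Mt2A and -0.38 to 0.23 for Mt3. The cause was not tested. Slc22a2, Slc47a1 and Atp7b had the lowest counts of the set.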
